A study of Mus musculus with 8 samples.

Results

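A group of 10 immediate early genes was followed through the LPS response of mouse macrophages: the EGR family genes Egr1, Egr2 and Egr3, the FOS and JUN family genes Fos, Fosb, Jun, Junb and Jund, and the immediate early response genes Ier2 and Ier3. They were chosen by name, and every probe set that the platform annotation assigns to 1 of them alone was taken, which gave 12 of the 22690 probe sets and 10 of the 12394 genes measured. Total RNA of bone marrow-derived macrophages was hybridised to 8 Affymetrix arrays, 1 for each of 8 groups. Cells of Cd14-/- C57BL/6 mice received no stimulus or 1 µg/ml of lipopolysaccharide (LPS, a component of the outer membrane of Gram-negative bacteria) for 6 h or 24 h. Cells of C57BL/6 mice received the same LPS dose together with EGTA, a chelator of calcium ions outside the cell, for 6 h or 24 h, or LPS alone for 6 h or 24 h, or no stimulus. The mice of all groups were 6 to 8 weeks old, and all cells had grown from marrow for 7 days with 10% serum and M-CSF. An EGTA concentration of 2 mM is given for the 24 h sample, and LPS is called smooth in the wild-type labels. According to the series' title and design text, the study set conditions that allow NFAT activation against conditions that inhibit it.

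Immediate early genes are transcribed within minutes of a stimulus from transcription factors that are already present, without new protein synthesis, and their mRNAs are short-lived. In macrophages, TLR4 and growth factors such as M-CSF reach them through the ERK, JNK and p38 kinases, through serum response factor with its partners of the ETS family, which binds the CArG box, and through CREB family factors, which bind the cAMP response element. FOS and JUN proteins pair to form AP-1, and EGR proteins are zinc finger factors held back by the corepressors NAB1 and NAB2. The earliest stimulated arrays were taken at 6 h, so the first burst of induction was not sampled.

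There was 1 array per group, so a difference between a pair of arrays has no replicate check and carries no p-value, and no order of neighbouring levels could be tested. Unstimulated cells were harvested 24 h after plating. The labels give no interval between plating and LPS for the other arrays, so LPS and time since plating cannot be told apart. No array held EGTA without LPS. In bulk RNA, fewer cells of a type and less RNA per cell cannot be told apart. Cd14 stood at or below the floor of measurement on all 3 arrays labelled CD14-deficient and between 3849 and 12515 on the 5 wild-type arrays. The labels do not say whether its probe set lies in the deleted stretch. None of the 9 macrophage markers on the array was at the floor on all arrays, and their summed intensity ran from 66139 to 80319. Cd14 itself is among the 9, and the lowest sums, 66139 and 66504, were those of CD14-deficient cells at 0 and 6 h. All 4 markers each of B cells, of T and NK cells and of dendritic cells were at the floor throughout, as were 4 of 7 neutrophil, 3 of 4 mast cell and 3 of 5 fibroblast markers. RNA integrity numbers ran from 9.3 to 9.7.

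Proximal promoters were available from RefSeq (build GRCm38.p6) for 7 of the 10 genes. 3 of them are shown because their genes stand for the patterns described here: Egr2 differed most between the genotypes, Fos was lower at 6 h on every array, and Junb was higher. Each line holds the 250 bases before a transcription start, 5′ to 3′ on the gene's strand, with capitals for the CArG box and for the core of the cAMP response element, TGACG or its complement CGTCA. The windows are chr10:67537619-67537868 (plus strand) for Egr2, chr12:85473640-85473889 (plus strand) for Fos and chr8:84978749-84978998 (minus strand) for Junb.
Egr2: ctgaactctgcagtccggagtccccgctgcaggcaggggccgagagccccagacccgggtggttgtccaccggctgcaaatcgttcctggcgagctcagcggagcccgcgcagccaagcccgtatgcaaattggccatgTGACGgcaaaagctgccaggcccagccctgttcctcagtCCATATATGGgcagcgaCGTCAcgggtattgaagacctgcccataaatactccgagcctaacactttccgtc
Fos: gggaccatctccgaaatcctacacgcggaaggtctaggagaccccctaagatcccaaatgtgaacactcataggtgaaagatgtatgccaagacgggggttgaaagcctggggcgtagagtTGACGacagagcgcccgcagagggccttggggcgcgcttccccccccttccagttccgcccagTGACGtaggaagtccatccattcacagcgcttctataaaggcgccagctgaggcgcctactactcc
Junb: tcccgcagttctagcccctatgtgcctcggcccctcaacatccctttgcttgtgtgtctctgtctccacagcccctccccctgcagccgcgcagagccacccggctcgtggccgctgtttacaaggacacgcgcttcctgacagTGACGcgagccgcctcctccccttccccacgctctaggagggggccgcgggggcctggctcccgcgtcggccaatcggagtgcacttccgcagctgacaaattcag
The Egr2 window held the CArG box CCATATATGG at −72 to −63 from the start, with a TGACG core on each side of it. A CArG box occurred in 1 of the 7 genes, Egr2, and in 1.48% of all 32536 mouse windows of this length, both strands searched. The TGACG core occurred in 4 of the 7 genes, Egr2, Fos, Fosb and Junb, and in 17.9% of all windows. Fos held it at −129 and at −66 from the start, with TATAAA at −33. The NF-kB site was matched in Egr2, Fos, Fosb and Ier3 (4 of 7 genes, against 7.28% of all windows), for Egr2 in the window of another of its 5 annotated starts. The full element TGACGTCA (1.56% of windows) and the AP-1 site TGANTCA (6.73%) were matched in none of the 7. A gene was counted if any of its windows matched, and the 7 genes had 11 windows, 5 of them of Egr2. The shares are of single windows, so gene counts and shares are not like measures. Egr1, Egr3 and Ier2 had no window and were not searched. Bases outside the windows were not searched either, so a missing match says nothing of sites further upstream. These matches describe letters in a short window and not sites in use.

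Intensities below are quantile normalized and have no length scale, so they are compared between arrays and not between genes. Values at or below 38.4, the 40th percentile of all values, were treated as at the floor, and a gene was compared between 2 arrays if the brighter exceeded the median of all values, 88.2. Of the 10 genes, 8 passed in all 12 comparisons made. Egr3, an EGR factor induced in activated lymphocytes, and Fosb, a FOS protein, never left the floor. Their highest intensities on any array were 20.9 and 32.2, so nothing is said of their direction.

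**Figure D1:**
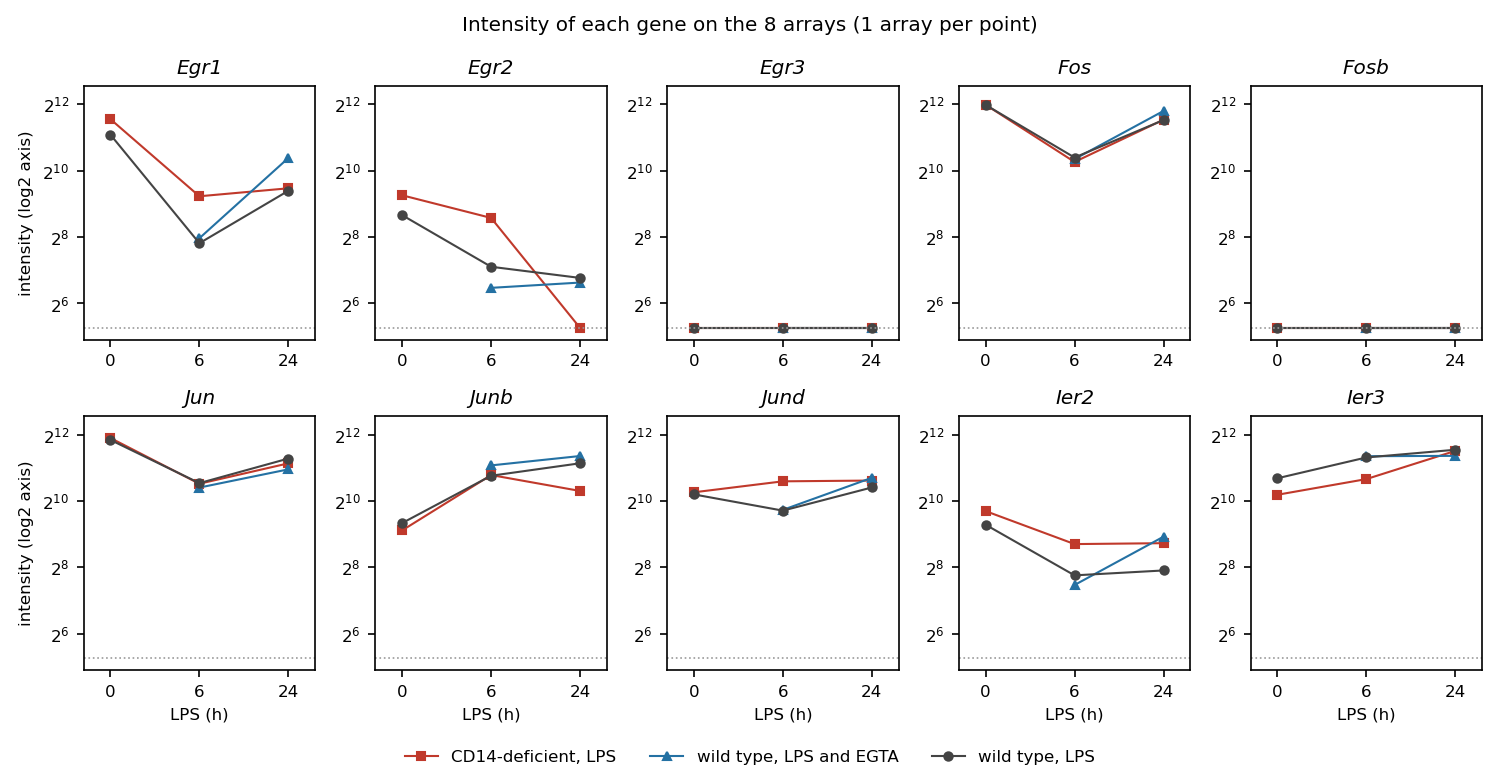
Normalized intensity of each gene (log2 axis) at 0, 6 and 24 h of LPS, 1 point per array: CD14-deficient cells with LPS (red squares), wild-type cells with LPS and EGTA (blue triangles), wild-type cells with LPS (grey circles). The dotted line is the floor of 38.4, to which lower values were raised. Egr1, Fos and Jun dip at 6 h in each condition, Junb stands above its 0 h level, and Egr3 and Fosb lie on the floor.

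At 6 h of LPS, members of all 3 families stood below their unstimulated level. In an additive limma model over the 8 arrays, with terms for 6 h, 24 h, CD14 deficiency and EGTA, Egr1, Fos, Jun and Ier2 fell and Junb rose at an adjusted p below 0.05, out of 8 genes tested. Among all 8549 genes tested, 12.4% fell and 10.0% rose at 6 h. At 24 h Junb and Ier3 rose and Jun fell, where 9.6% of all genes rose and 11.1% fell. The 3 residual degrees of freedom of this fit measure departure from additivity across arrays, not spread between cultures. Its p-values therefore set the size of an effect against that departure. On the intensities as deposited, Junb and Ier2 did not pass at 6 h and none of the 8 passed at 24 h, and with no floor only Fos and Jun passed, at 6 h. Terms for 6 h and 24 h share the unstimulated arrays.

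Fos, the FOS subunit of AP-1, had intensities of 4058, 1229 and 2970 at 0, 6 and 24 h in CD14-deficient cells, 1304 and 3565 at 6 and 24 h with EGTA, and 4044, 1347 and 2948 at 0, 6 and 24 h in wild-type cells. The 3 arrays at 6 h were the lowest and did not overlap the others. CD14-deficient and wild-type cells were within 1.10-fold of each other at each time. The effect of 6 h of LPS on the log2 scale was −1.70 (SE 0.12, limma adjusted p = 0.00424, 8 arrays). At 24 h the effect was −0.41 (SE 0.12, limma adjusted p = 0.0731).

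Jun, which pairs with FOS proteins and with itself, has 2 probe sets. The brighter one read 3819.8, 1468 and 2249 at 0, 6 and 24 h in CD14-deficient cells, 1356 and 1984 with EGTA at 6 and 24 h, and 3669, 1488 and 2485 in wild-type cells. As with Fos, the 3 arrays at 6 h were lowest in every condition. Its effects were −1.32 (SE 0.12, limma adjusted p = 0.00511) at 6 h and −0.68 (SE 0.12, limma adjusted p = 0.0192) at 24 h. The second probe set gave log2 differences between 6 h and 0 h of −1.51 in CD14-deficient and −1.01 in wild-type cells. Both probe sets were lower at 6 h in both genotypes.

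Egr1, an EGR factor whose transcription follows ERK activity, stood at 3006, 600.1 and 709 at 0, 6 and 24 h in CD14-deficient cells. With EGTA it was 249.7 and 1335 at 6 and 24 h, and in wild-type cells it was 2175, 225 and 673 at 0, 6 and 24 h. Both unstimulated arrays lay above all 6 stimulated ones. Its effect of 6 h of LPS was −3.05 (SE 0.48, limma adjusted p = 0.0143). At 24 h it was −1.64 (SE 0.48, limma adjusted p = 0.0667). The 24 h effect passed in 1 of 7 other settings of the fit and the 6 h effect in 6. In wild-type cells its log2 difference between 6 h and 0 h, −3.27, was at or below that of 99.9% of compared genes.

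Ier2, a short-lived nuclear protein of the early response, read 830, 417 and 425 in CD14-deficient cells, 177 and 486 with EGTA, and 624, 217 and 240 in wild-type cells, in the same order of times. The unstimulated arrays were again the highest. The effect of LPS was −1.49 (SE 0.37, limma adjusted p = 0.0443) at 6 h and −0.94 (SE 0.37, limma adjusted p = 0.125) at 24 h. The 6 h call for Ier2 was lost in 4 of 7 other settings of the fit, where adjusted p ran from 0.0292 to 0.128 over all 7.

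Junb, a JUN protein that can oppose Jun at some AP-1 sites, went the other way. It had intensities of 554, 1761 and 1263 at 0, 6 and 24 h in CD14-deficient cells, 2154 and 2620 with EGTA at 6 and 24 h, and 646, 1736 and 2252 in wild-type cells. All 6 stimulated arrays lay above both unstimulated ones. Its effects were 1.49 (SE 0.23, limma adjusted p = 0.0136) at 6 h and 1.55 (SE 0.23, limma adjusted p = 0.0150) at 24 h. Fos, Jun and Junb, 3 subunits of 1 dimeric factor, thus did not share a direction at 6 h.

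Ier3, a regulator of survival and ERK signalling, read 1166, 1618 and 2916 at 0, 6 and 24 h in CD14-deficient cells. It was 2609 and 2629 with EGTA at 6 and 24 h, and 1645, 2542 and 2986 in wild-type cells. The 3 arrays at 24 h were close together, while the CD14-deficient array was lowest at 0 and 6 h. The effect of LPS was 0.64 (SE 0.21, limma adjusted p = 0.0897) at 6 h and 1.00 (SE 0.21, limma adjusted p = 0.0322) at 24 h. Jund, a JUN protein that many resting cells express, ran from 838 to 1662 over the 8 arrays, and its effects were −0.18 (SE 0.26, limma adjusted p = 0.664) at 6 h and 0.38 (SE 0.26, limma adjusted p = 0.330) at 24 h. Its log2 difference between 6 h and 0 h was 0.33 in CD14-deficient and −0.49 in wild-type cells.

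In comparisons of 1 array with 1 array, both genotypes had more of the 8 genes past 2-fold in the lower than in the higher direction at 6 h. In CD14-deficient cells at 6 h, Junb was higher and Egr1, Fos and Jun were lower (1 and 3 of 8), where 10.3% of 6929 genes were higher and 8.99% lower. Ier2, at a log2 difference of −0.99, lay just short of the threshold of 1. As deposited, that split was 1 higher and 5 lower, Egr2 and Ier2 being added, where 495 of 7182 genes were higher and 1412 lower. With equal medians it was 1 and 2, without Jun, where 835 of 6929 genes were higher and 455 lower. In wild-type cells at 6 h, Junb was higher and Egr1, Egr2, Fos, Jun and Ier2 were lower (1 and 5 of 8), where 10.5% of 6936 genes were higher and 9.5% lower. With equal medians Jun was not among them (1 and 4), where 849 of 6937 genes were higher and 547 lower. The median log2 difference of the 8 genes was −0.84 in CD14-deficient and −1.41 in wild-type cells, and that of all compared genes was −0.13 and −0.12. At 24 h in CD14-deficient cells, Junb and Ier3 were higher and Egr1 and Egr2 lower, where 8.29% of all genes were higher and 8.77% lower. On the intensities as deposited that split was 1 higher and 3 lower, where 474 of 7200 genes were higher and 832 lower. At 24 h in wild-type cells, Junb was higher and Egr1, Egr2 and Ier2 lower, where 10.6% were higher and 10.7% lower. With arrays scaled to equal medians that split was 2 higher and 3 lower, Ier3 being added. Of 6966 genes, 942 were then higher and 605 lower. Comparisons of 6 h and of 24 h with 0 h share the unstimulated array of their genotype.

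**Figure D2:**
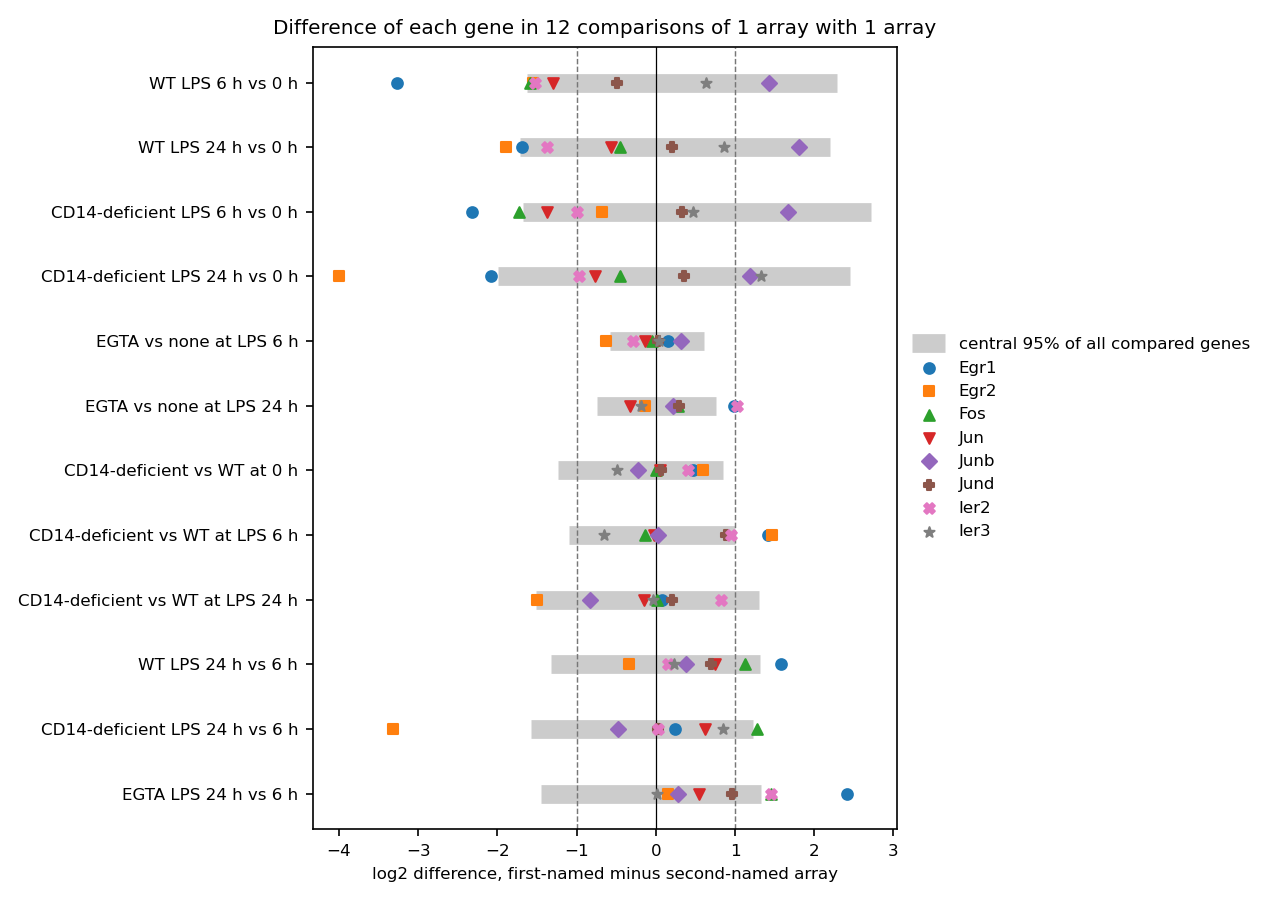
Log2 difference of each of the 8 compared genes (symbols) in the 12 comparisons, first-named array minus second-named, beside the central 95% of all compared genes (grey bars) and the 2-fold lines (dashed). Egr1 at 6 h against 0 h and Egr2 in CD14-deficient cells at 24 h against 0 h and against 6 h lie outside the grey bars. Most symbols of the EGTA comparisons lie within theirs.

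Between 6 h and 24 h of LPS, Fos stood higher at 24 h in all 3 conditions. Its log2 differences were 1.27 in CD14-deficient cells, 1.45 with EGTA and 1.13 in wild-type cells. Egr1 differed more between conditions, with 0.24 in CD14-deficient cells, 2.42 with EGTA and 1.58 in wild-type cells. At least 2-fold higher at 24 h than at 6 h was Fos alone in CD14-deficient cells (4.32% of all genes), Egr1, Fos and Ier2 with EGTA (5.6%), and Egr1 and Fos in wild-type cells (5.5%). By its representative probe set, no member was 2-fold lower with EGTA or in wild-type cells, where 6.14% and 5.56% of all genes were. The second Egr2 probe set, at the floor in wild-type cells at 24 h, differed there by −1.98 or lower. With the mean of all probe sets Egr2 was at least 2-fold lower in wild-type cells, where 286 of 6498 genes were. Egr2 was at least 9.95-fold lower at 24 h than at 6 h in CD14-deficient cells, where 6.16% of all genes passed 2-fold in that direction.

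At 6 h of LPS, Egr1 and Egr2 read higher in CD14-deficient than in wild-type cells, while Fos and Junb read much the same. Egr1 was 2.67-fold and Egr2 2.77-fold higher in CD14-deficient than in wild-type cells at 6 h of LPS, 2 of 8 genes at least 2-fold higher and 0 lower, where 2.53% of 6761 genes were higher and 3.08% lower. Ier2 and Jund were 1.92-fold and 1.84-fold higher, and Fos, Jun and Junb were each within 1.10-fold by their representative probe sets. The second Jun probe set read 372 in CD14-deficient and 512 in wild-type cells, a log2 difference of −0.46. Ier3 ran the other way, 1.57-fold lower in CD14-deficient cells. Without LPS, 0 of 8 genes were 2-fold different, where 1.4% of all genes were higher and 3.2% lower. Egr1, Egr2 and Ier2 were then 1.38-fold, 1.51-fold and 1.33-fold higher in CD14-deficient cells, and Ier3 was 1.41-fold lower. The log2 difference between 6 h and 0 h was −2.32 in CD14-deficient and −3.27 in wild-type cells for Egr1, 0.95 apart. For Egr2 it was −0.68 and −1.56, 0.87 apart. The central 95% of such gaps over 7091 genes ran from −1.22 to 1.39, so both lay within it.

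Egr2, an EGR factor of macrophage and lymphocyte differentiation, had the widest range. Its brighter probe set read 613, 382 and 35.1 at 0, 6 and 24 h in CD14-deficient cells, 88.7 and 99.0 with EGTA at 6 and 24 h, and 405, 138 and 109 in wild-type cells. The CD14-deficient array was above wild type at 0 and 6 h and at the floor at 24 h, at least 2.84-fold below wild type. This was 1 of 8 genes lower at 24 h and 0 higher, where 6.21% of 6846 genes were lower and 5.21% higher. On the intensities as deposited Ier2 was higher, where 1089 of 6826 genes were higher and 215 lower. The wild-type intensity of Egr2 then fell short of the filter, so Egr2 was not compared, with a log2 difference of −1.14. With equal medians Egr2 and Junb were lower, where 551 of 6846 genes were lower and 329 higher. The wild-type value of 109 was itself not far above the median of all values, and the second probe set stood at the floor on both arrays at 24 h. It read 610.4, 390 and 24.9 in CD14-deficient cells at 0, 6 and 24 h, and 407, 151 and 28.0 in wild-type cells. Between 24 h and 0 h the brighter set differed by −4.00 or lower in CD14-deficient and by −1.89 in wild-type cells, and the second set by −3.99 and −3.41 or lower. With EGTA it read 34.5, at the floor, and 86.6 at 6 and 24 h. The probe sets thus read alike in both genotypes at 0 and 6 h but not with EGTA at 6 h, and the difference between genotypes at 24 h rested on 1 of them. In the additive fit the 6 h effect on Egr2 was −1.45 (SE 0.81, limma adjusted p = 0.253) and the 24 h effect −2.61 (SE 0.81, limma adjusted p = 0.0765).

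**Figure D3:**
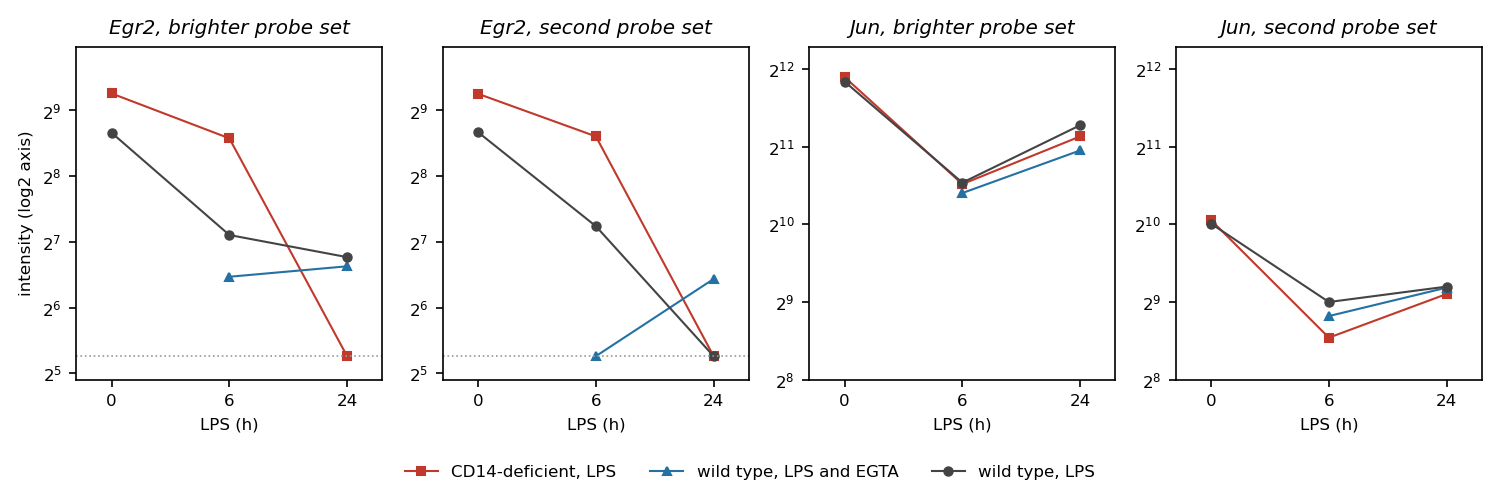
Intensity (log2 axis) of both probe sets of Egr2 and of Jun at 0, 6 and 24 h of LPS, 1 point per array, with symbols as in the plot of all genes and the floor dotted. The Egr2 probe sets part in wild-type cells at 24 h of LPS and with EGTA at 6 h, where the second lies on the floor, and otherwise lie close together or both on the floor.

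At 24 h of LPS, Junb was 1.78-fold lower and Ier2 1.77-fold higher in CD14-deficient than in wild-type cells. Neither reached 2-fold with quantile normalization. Averaged over 0, 6 and 24 h in the additive fit, CD14 deficiency changed 0 of the 8 genes by limma's adjusted p, where 0.0234% of all genes rose and 0.14% fell. None of the 8 had an unadjusted p below 0.05, against 1461 of 8549 genes. Effects were 0.72 (SE 0.31, adjusted p = 0.321) for Ier2, 0.65 (SE 0.41, adjusted p = 0.454) for Egr1, −0.39 (SE 0.18, adjusted p = 0.341) for Ier3 and −0.04 (SE 0.11, adjusted p = 0.881) for Fos, all from limma. These p-values do not show that the genotypes act alike.

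With EGTA, most of the group read near the level of LPS alone at 6 h, and higher values of Egr1 and Ier2 were measured at 24 h. At 6 h, 0 of 8 genes were at least 2-fold different between LPS with EGTA and LPS alone, where 0.549% of 6740 genes were higher and 0.267% lower. The largest difference was that of Egr2, 1.55-fold lower with EGTA, and its second probe set, at the floor with EGTA, differed by −1.98 or lower on the log2 scale. On the intensities as deposited, Egr2 and Ier2 were at least 2-fold lower with EGTA at 6 h. There 1353 of 6778 genes were lower and 2 higher, with a median of −0.78 over all compared genes, which quantile normalization removes. At 24 h, Ier2 was 2.03-fold and Egr1 1.98-fold higher with EGTA, 1 of 8 genes past 2-fold and 0 lower, where 1.02% of 6754 genes were higher and 1.11% lower. Both were above 2-fold in each of the other scalings. Genes higher over all were then 115 of 6510 as deposited and 73 of 6754 with equal medians. The Egr2 probe sets differed at 24 h as well, at −0.14 for the brighter and at least 1.17 for the second on the log2 scale. Fos and Jun were 1.21-fold higher and 1.25-fold lower with EGTA at 24 h. In the additive fit, limma gave 0 genes for EGTA at an adjusted p of 0.05, 0.0% in either direction, and 516 at an unadjusted p below 0.05, none of them among the 8. The comparisons of EGTA and of CD14 deficiency share the wild-type LPS array of their time.

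Other genes of the pathway were taken as 4 named lists. Of 25 other immediate early genes in the additive fit, 8 fell and 1 rose at 6 h of LPS, where 12.4% of all genes fell and 10.0% rose. Those that fell included Myc (−3.16, SE 0.29, limma adjusted p = 0.00535), a growth regulator, Zfp36l1 (−4.02, SE 0.26, limma adjusted p = 0.00386), which promotes decay of AU-rich mRNAs, and Id1 (−1.96, SE 0.21, limma adjusted p = 0.00645), an inhibitor of bHLH factors. Gadd45b, a stress-induced regulator of p38 and JNK signalling, rose by 2.82 (SE 0.34, limma adjusted p = 0.00814). At 24 h 6 of the 25 fell and 1 rose, where 11.1% of all genes fell and 9.6% rose. Pairwise in CD14-deficient cells, 8 of 21 compared were at least 2-fold lower and 1 higher at 6 h. Over all genes 8.99% were lower and 10.3% higher there. In wild-type cells 7 of 19 compared were lower and 2 higher, where 9.5% of all genes were lower and 10.5% higher. On the intensities as deposited the CD14-deficient counts were 10 lower and 1 higher of 22, where 1412 of 7182 genes were lower and 495 higher. The wild-type counts were then 8 lower and 4 higher, where 872 of 7185 genes were lower and 682 higher. With equal medians they were 7 lower and 3 higher in CD14-deficient cells and 7 lower and 4 higher in wild-type cells. Over all genes they were 455 lower and 835 higher of 6929, and 547 lower and 849 higher of 6937. The medians of this list were below 0 at 6 h in every scaling, at −0.37 in CD14-deficient and −0.62 in wild-type cells with quantile normalization. At 24 h in CD14-deficient cells, 6 of 18 read below wild type by 2-fold or more and 0 above it, led by Klf4, a zinc finger factor, at 122 in CD14-deficient and 729 in wild-type cells, where 6.21% of all genes were lower and 5.21% higher. As deposited, 5 were lower and 2 higher, where 215 of 6826 genes were lower and 1089 higher. At 0 h 3 of 20 were higher in CD14-deficient cells and 0 lower, namely Myc (2.43-fold), Ier5l (2.15-fold) and Nr4a1 (2.10-fold), where 1.4% of all genes were higher and 3.2% lower. At 6 h 3 of 18 were higher, Trib1, Klf2 and Rhob, and Klf4 was lower, where 2.53% were higher and 3.08% lower. That split was 0 higher and 3 lower as deposited and 2 and 1 with equal medians. Over all genes it was 99 higher and 447 lower of 6879 as deposited, and 161 and 227 of 6761 with equal medians. None of the 25 passed limma's adjusted p for CD14 deficiency or for EGTA.

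Of 16 other basic leucine zipper genes of the AP-1, ATF and MAF families, 5 rose and 1 fell at 6 h and 10 did not pass, where 10.0% of all genes rose and 12.4% fell. Jdp2, a repressor of AP-1, rose by 4.10 (SE 0.38, limma adjusted p = 0.00535), Batf2 by 3.85 (SE 0.23, limma adjusted p = 0.00386) and Batf by 1.90 (SE 0.16, limma adjusted p = 0.00500). Mafk and Crem also rose and Maf fell. At 24 h 5 rose, Batf, Batf2, Creb1, Jdp2 and Mafk, and 0 fell, where 9.6% of all genes rose and 11.1% fell. Jdp2 at 24 h stood at 518 in CD14-deficient and 2042 in wild-type cells, 3.94-fold lower, and Batf2 at 619 and 2141. The median log2 difference at 6 h was 0.58 in CD14-deficient and 0.57 in wild-type cells, and it was above 0 in every scaling. At 24 h in wild-type cells it was 0.45, and −0.23 on the intensities as deposited. The medians of all compared genes were then −0.07 and −0.66.

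**Figure D4:**
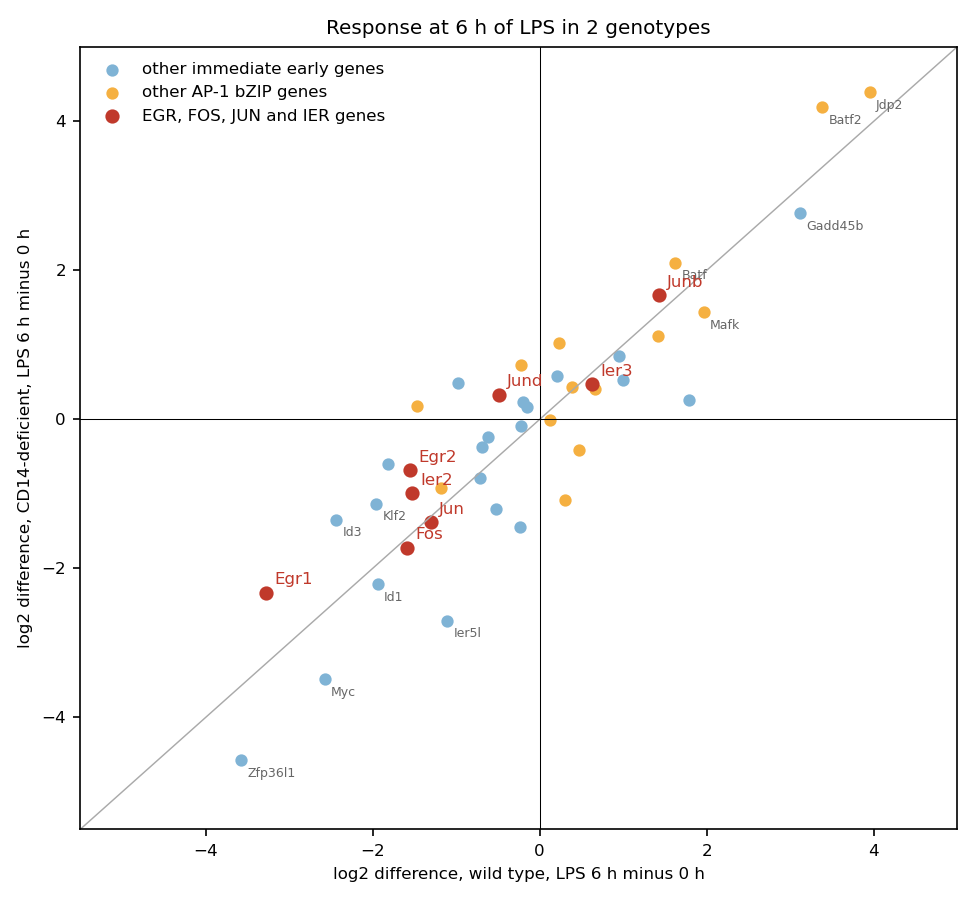
Log2 difference between 6 h of LPS and 0 h in CD14-deficient cells (vertical) and wild-type cells (horizontal), 1 point per gene, for the 8 genes described (red), other immediate early genes (blue) and other AP-1 family genes (orange). The line marks equal differences. Fos, Jun and Junb lie near it, Egr1, Egr2 and Ier2 above it, and the AP-1 family genes Jdp2 and Batf2 at the top right.

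Among regulators of immediate early gene transcription, 4 of 20 rose and 1 fell at 6 h, against the same 10.0% and 12.4% of all genes. Map3k8, the kinase that links TLR signals to ERK, rose by 2.59 (SE 0.22, limma adjusted p = 0.00500), as did Map2k4, an activator of JNK, by 1.84 (SE 0.18, limma adjusted p = 0.00573). Mrtfa, a coactivator of serum response factor, fell by 1.09 (SE 0.18, limma adjusted p = 0.0159). Nab2, the corepressor of EGR factors, read 743, 383 and 584 at 0, 6 and 24 h in CD14-deficient cells, 207 and 178 with EGTA, and 320, 203 and 209 in wild-type cells. All 3 CD14-deficient arrays lay above the wild-type arrays of the same time, by 2.32-fold, 1.89-fold and 2.79-fold. Its CD14 effect was 1.20 (SE 0.17), which did not pass limma's adjusted p (0.108). Nab1, the other corepressor, ran only from 1386 to 2186 over the 8 arrays.

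The ERK phosphatases and Sprouty genes, which feed back on ERK and are themselves induced by it, were mixed. Of 8 tested, Dusp1 and Spred1 rose at 6 h and Dusp6, Dusp7, Spred2 and Spry2 fell (2 and 4, beside 10.0% and 12.4% of all genes). Dusp6, the ERK phosphatase, fell by 3.29 (SE 0.39, limma adjusted p = 0.00765), with 226 in CD14-deficient and 148 in wild-type cells at 6 h. At 24 h it read 1085 in CD14-deficient and 301 in wild-type cells, 3.61-fold higher. With EGTA, Dusp2 was 3.22-fold higher at 6 h and 2.44-fold higher at 24 h than with LPS alone, and Spry2 was 2.68-fold and 2.16-fold lower. The EGTA effects of Dusp2 and Spry2 had limma adjusted p of 0.736 and 0.599. Heat shock genes were set beside these as signs of handling. Of 10 tested, 2 rose and 2 fell at 6 h, beside those same shares. Hspa1a and Hspa1b rose by 2.24 and 2.89 (SE 0.14 and 0.28, limma adjusted p = 0.00386 and 0.00571), and their part in the LPS results was not tested.

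Over the 8 arrays, Egr1 and Ier2 ran together (Pearson r = 0.93 of log2 values), as did Fos and Jun (0.90), while Egr2 and Ier3 ran in opposite directions (−0.93). These values describe 8 arrays that share conditions. Of 3931 genes with a range of at least 1 on the log2 scale and at least 4 arrays above the floor, the nearest to Fos were Dbp (r = 0.99), an output gene of the circadian clock, Tsc22d3 (0.99), a glucocorticoid-induced gene, and Mknk2 (0.98), a kinase gene. Dbp was at the floor on all 3 arrays at 6 h and between 137 and 218 on the other 5, the same split of arrays as for Fos. Nearest to Junb were Traf2 (0.996), an adaptor of TNF receptor signalling, and Pfkfb3 (0.99), a regulator of glycolysis. Cab39 was nearest to Egr1 (0.98), Cnr2 to Jun (0.99), Nup54 to Ier2 (0.99), Zfp948 to Egr2 (0.95) and St3gal5 to Ier3 (0.97). Jund had too narrow a range for this search.

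Of the markers of other cells, some moved with the conditions. The mast cell and progenitor gene Kit stood at 143 and 171 in unstimulated CD14-deficient and wild-type cells and at or below 84.9 on the 6 stimulated arrays, where Egr1 also stood lower. The 3 other markers of its list, Mcpt8, Cpa3 and Fcer1a, were at the floor on every array, and the summed level of the list ran from 44.5 to 208. The endothelial list summed to between 79.6 and 210.4 in CD14-deficient cells and between 148 and 908 in wild-type cells with or without EGTA. Kdr made up most of it in stimulated wild-type cells, and Pecam1 was at the floor throughout. At 24 h of LPS the fibroblast list summed to 81.0 in CD14-deficient, 143 in EGTA-treated and 269.5 in wild-type cells, with Col1a1, Col3a1 and Pdgfra at the floor on every array. Dcn carried that difference, at 192 in wild-type cells at 24 h of LPS and at or below 58.2 on the other 7 arrays. The neutrophil gene Camp stood at 107 in CD14-deficient cells at 24 h of LPS, the array on which both Egr2 probe sets were at the floor, and at or below 38.6 on the other 7. The neutrophil list summed to 174 on that array and to between 63.4 and 140.4 on the others, with Prtn3, Ctsg, Ltf and Ngp at the floor on all 8. The part of any of these in the results above was not tested.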

How the data were processed

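The deposited values are linear probe set intensities, which the authors made with MAS5 per the submitters' processing notes; no version, scaling target or detection call is given in the sources used here. Trimmed means (2% from each end) ran from 314 to 527 between arrays, so intensities were quantile normalized over the 8 arrays, which also removes a shift common to all genes. Intensities under the 40th percentile (38.4) were raised to it and log2 was taken. Gene names came from the platform annotation and RefSeq, and 20393 probe sets had 1 gene. The probe set with the highest mean represented a gene. Differences with an array at the floor are bounds. limma 3.58.1 in R 4.3.3 fitted an additive model over all 8 arrays (Benjamini-Hochberg, threshold 0.05, genes above the floor on at least 1 array). The fit was also run on simulated data with additive means, noise of equal size for all genes and no floor. That run could not show how the fit handles departure from additivity or values at the floor. The number of arrays limits the precision.

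Members, lists and tests were chosen with earlier results of these data known. Genes named were all members, the genes with the largest differences in each list, the nearest genes by correlation over the 8 arrays, and Cd14. Other list genes called by the fit, Rhob, Nab1 and the markers named were chosen after their values were seen. Promoter windows came from RefSeq. Alternatives tried were other scalings, floors, filters, probe set rules, a 1.5-fold threshold and the fit without EGTA arrays.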

Additional observations from a re-analysis of the deposited data

Results flagged for a closer look

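For Egr2 the CD14-deficient array lay above the wild-type array at 6 h of LPS, by 1.47 on the log2 scale, and below it at 24 h, by at least 1.51 (−1.51 with the CD14-deficient array raised to the floor). The genotypes thus differed in opposite directions at the 2 times, with 1 array per group, and this difference between times was not tested. Over all 7048 genes compared at either time, 3 (0.0426%) were at least 2-fold different in opposite directions. The second Egr2 probe set gave 1.37 at 6 h, and at 24 h both of its arrays were at the floor, where values have no order.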

How the results depend on the processing

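No called value changed sign under any alternative run, and the cause of each move was not tested. Counts of the members at least 2-fold different that moved by more than 1.5 times were as follows. On the intensities as deposited they were 2 for EGTA at 6 h (0 as reported), 2 for EGTA at 24 h (1), 1 for wild type 24 h against 6 h (2) and 5 for EGTA 24 h against 6 h (3). Genes higher and lower for EGTA were then 2 and 1353 of 6778 at 6 h and 115 and 42 of 6510 at 24 h. For 24 h against 6 h they were 110 and 1269 of 6856 in wild type and 1083 and 165 of 6532 with EGTA. With equal medians the member counts were 2 for EGTA at 24 h and 2 for CD14 deficiency at 24 h (1). Genes higher and lower were then 73 and 74 of 6754 for EGTA and 329 and 551 of 6846 for CD14 deficiency. With the mean of all probe sets the member counts were 1 for EGTA at 6 h and 0 for CD14 deficiency at 24 h. Genes higher and lower were then 27 and 11 of 6361 for EGTA and 283 and 375 of 6514 for CD14 deficiency. At a 1.5-fold threshold the member counts were 1 and 2 for EGTA at 6 and 24 h, and 1, 5 and 3 for CD14 deficiency at 0, 6 and 24 h. They were 4 for 24 h against 6 h in CD14-deficient (2) and in wild-type cells. Genes higher and lower for EGTA were then 185 and 166 of 6740 at 6 h and 305 and 308 of 6754 at 24 h. For CD14 deficiency they were 420 and 453 of 6782 at 0 h and 509 and 602 of 6761 at 6 h. At 24 h they were 969 and 964 of 6846. For 24 h against 6 h they were 936 and 892 of 6831 in CD14-deficient and 1002 and 909 of 6835 in wild-type cells. Smaller moves of member counts included CD14-deficient 6 h against 0 h (4), at 6 as deposited, 3 with equal medians and 6 at 1.5-fold. Others were CD14-deficient 24 h against 0 h (4), at 6 at 1.5-fold, and wild type 24 h against 6 h (2), at 3 with the mean of all probe sets. For CD14-deficient 6 h against 0 h, 495 of 7182 genes were higher and 1412 lower as deposited. With equal medians they were 835 and 455 of 6929, and at 1.5-fold 1129 and 1468. At 1.5-fold 1069 of 6908 were higher and 1223 lower for CD14-deficient 24 h against 0 h. With the mean of all probe sets, 316 of 6498 were higher and 286 lower for wild type 24 h against 6 h. In the additive fit, genes past the threshold at 6 h (5) were 3 on the intensities as deposited and 2 without a floor, and at 24 h (3) they were 0, 0 without a floor and 1 with a floor at the 20th percentile. Fos and Jun passed at 6 h in all 7 alternatives, Egr1 in 6 and Junb in 5, and at 24 h Junb passed in 5, Ier3 in 3 and Jun in 2. As deposited, the median of all compared genes moved to −0.78 for EGTA at 6 h, −0.66 for wild type 24 h and −0.46 for CD14-deficient 6 h against 0 h, and 0.43 for CD14 deficiency at 24 h. Over all genes the additive fit called 857 higher and 1056 lower at 6 h, 276 and 418 as deposited, 1054 and 650 with equal medians, 338 and 190 without a floor, and 495 and 442 without the EGTA arrays. At 24 h it called 821 higher and 948 lower, 223 and 354 as deposited, 1091 and 588 with equal medians, 189 and 107 without a floor, and 314 and 289 without the EGTA arrays. The additive fit matched arrays of the same time through its time terms. With 1 array per group, no pairing of replicates was possible.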
